A study of Mus musculus with 4 samples.

Results

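Sugar, ion, phosphate, carboxylate and organic anion transporters were followed in hypoxic TKPTS cells, a mouse renal proximal tubular cell line that the sample labels call TKPT. The genes were chosen by symbol, as all members of the solute carrier families Slc2, Slc4, Slc5, Slc9, Slc12, Slc13, Slc16, Slc17, Slc20, Slc22, Slc23, Slc34 and Slc47 and of the Slco family. The rule found 134 of the 22063 genes listed. It also takes *Slc9a3r1* and *Slc9a3r2*, scaffold proteins that bind transporters, and *Slc4a1ap*, an adaptor protein, which are not transporters. The other 131 genes comprised 29 sugar and vitamin, 28 ion, 33 phosphate and carboxylate and 41 organic anion and cation transporters.

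RNA-sequencing was available for 4 libraries, of which 2 are labelled Scrambled (replicates 2 and 3, a control siRNA) and 2 are labelled Itgb6-siRNA (replicates 1 and 3, an siRNA against integrin β6). All 4 came from cells of the same line, grown in medium with serum and insulin. They were kept for 24 h in 1% O2 and then for 12 h in normal oxygen. There was no normoxic library and no kidney tissue among them, so neither the response to hypoxia nor a loss relative to the kidney was measured. The comparison asks which transporters the cells expressed, and which differed between the labelled groups. For all its experiments the study states at least 3 independent biological replicates, and for the sequencing 2 replicates per group. It does not say whether these 2 per group came from separate cultures, so the p-values measure only the spread between these libraries.

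Proximal tubule cells take most filtered glucose, phosphate, bicarbonate and organic acids back from the urine. Sodium-coupled carriers at the brush border load the cell, the sodium pump keeps the sodium gradient that drives them, and facilitative carriers at the basolateral side pass the solutes on to the blood. Many organic anion and cation carriers, though not all, work in the other direction and secrete drugs and waste products. Cells under low oxygen rely on glycolysis, for which GLUT carriers bring in glucose and monocarboxylate carriers export lactate.

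The libraries held 15435074 to 17220281 counts. Counts of replicates differed by more than sampling noise, with a chi-square per gene of 3.21 between the libraries labelled Scrambled and of 4.04 between those labelled Itgb6-siRNA. *Itgb6* itself had 17.5 and 16.4 CPM (counts scaled to library size with TMM factors) in the libraries labelled Scrambled and 18.0 and 15.8 CPM in those labelled Itgb6-siRNA. Its log2 fold change was -0.0051 (SE 0.13, adjusted p = 0.991, quasi-likelihood test of edgeR, Benjamini-Hochberg adjusted). The knockdown was thus not seen in the mRNA of these libraries, and each group is called here only by its label. The study states that it checked the siRNA by qPCR and western blot. It reports less integrin αvβ6 protein in hypoxic cells given the siRNA. Of 17 proximal tubule markers, 6 (among them *Acsm2*, *Amn*, *Fbp1*, *Kap* and *Miox*) were at 0 counts in all 4 libraries, and *Hnf4a*, *Pck1*, *Dpep1* and *Lrp2* had between 0 and 17 counts. *Aqp1*, *Dab2*, *Cdh6*, *Anpep*, *Ggt1* and *Cubn* were among those that passed the filter on low counts. The summed level of the 17 markers was 75.3 and 85.2 CPM in the libraries labelled Scrambled and 95.8 and 96.9 CPM in those labelled Itgb6-siRNA. Of the 7 tested, 4 had a log2 fold change above 0 and 3 below it, with a median of 0.0053, and most of the difference in the sum came from *Aqp1* (means of 25.7 and 38.6 CPM) and *Cdh6* (16.9 and 22.1 CPM). Of 12 markers of other renal, vascular and immune cells, 6 were at 0 in all 4 libraries (among them *Nphs1* of podocytes, *Umod* of the thick ascending limb, *Pvalb* of the distal tubule, *Aqp2* and *Atp6v1g3* of the collecting duct). Their summed level lay between 102 and 118 CPM, of which *Cd68*, a lysosomal protein abundant in macrophages, gave 98.2 to 114 CPM, while the leukocyte gene *Ptprc* had 0 to 6 counts.

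Levels of different genes were compared in FPKM (fragments scaled to library size and gene length), the unit that allows for gene length. Of the 131 transporters, 47 had a mean of at least 1 CPM, 43 were detected below that and 41 had no count in any library. *Slc2a1* (GLUT1, the glucose carrier of most cells) had the highest level at 502 ± 50.4 FPKM (SD, n = 4) and ranked 162 among all genes. *Slc16a3* (MCT4, which exports lactate) followed at 365 ± 21.8 FPKM (SD, n = 4) and lay below *Slc2a1* in every library. Together they made up 77.2% to 78.8% of the summed FPKM of the 131 transporters.

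A wide gap followed. *Slco2a1* (the prostaglandin transporter, 30.4 ± 4.30 FPKM), *Slco4a1* (an organic anion transporting polypeptide, 26.8 ± 1.30 FPKM) and *Slc16a1* (MCT1, a lactate and pyruvate carrier, 26.0 ± 1.60 FPKM) overlapped one another across libraries (SD, n = 4). *Slc4a11* (a carrier of the bicarbonate transporter family, 20.4 ± 1.13 FPKM) lay below these in every library. *Slc20a1* (PiT-1, a sodium-phosphate cotransporter, 18.0 ± 0.556 FPKM) lay below *Slc4a11*, and *Slc4a2* (AE2, a chloride/bicarbonate exchanger, 10.1 ± 1.01 FPKM) below *Slc20a1*. From *Slc4a2* downward, the range of each gene across the 4 libraries overlapped that of the next one, so these ranges do not separate neighbours. The means still ran from 10.1 FPKM for *Slc4a2* to 1.03 FPKM for *Slc2a4*. Compared within each library, *Slco2a1* lay above *Slc16a1* and *Slc4a2* above *Slc4a4* in all 4. The place of *Slco4a1* relative to *Slco2a1* and *Slc16a1* changed with the library.

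**Figure D1:**
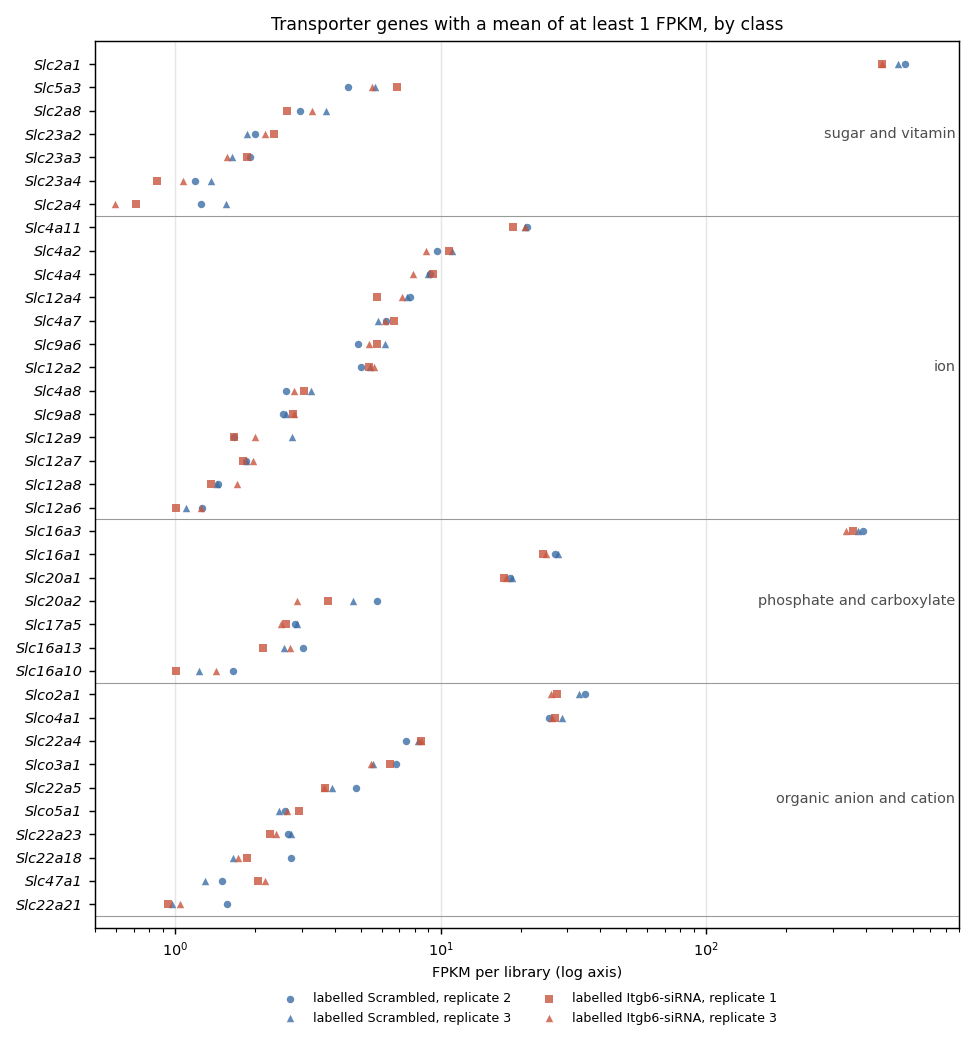
FPKM per library (log axis) of 37 transporters with a mean of at least 1 FPKM, ordered by mean within each class; blue marks the libraries labelled Scrambled, red those labelled Itgb6-siRNA, and the symbol gives the replicate number. *Slc2a1* and *Slc16a3* lie between 338 and 561 FPKM, and the next gene, *Slco2a1*, between 26.0 and 34.9 FPKM.

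Carriers that define the proximal tubule were mostly at low levels or at 0. In a list of 36 transporters known from this segment, 7 had a mean of at least 1 CPM, 14 were lower and 15 had no count in any library. In a single library, a count of 0 allows a level of up to 0.174 to 0.194 CPM, depending on the library (3 counts of its total, for counting error only). For a gene at 0 in all 4 libraries the limit on its mean level is lower.

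Within the families followed here, the 15 carriers at 0 were spread over several tasks of the segment. For glucose and lactate they were *Slc5a2* (SGLT2, the main glucose carrier of the early tubule) and *Slc5a12* (a sodium-coupled lactate carrier). *Slc9a3* (NHE3, the main sodium/proton exchanger of the brush border) was at 0 among the ion carriers. *Slc34a1* and *Slc34a3*, the NaPi-IIa and NaPi-IIc phosphate cotransporters, were at 0, as were *Slc13a3* (a dicarboxylate carrier) and *Slc16a9* (a monocarboxylate carrier family member). The organic ion carriers at 0 included *Slc22a6* (OAT1), *Slc22a8* (OAT3), *Slc22a7* (OAT2), *Slc22a2* (OCT2), *Slc22a12* (the urate carrier URAT1), *Slc22a19* and *Slc22a28*. Several rodent Slc22 and Slco genes are close copies of each other, and reads shared between copies may have been split or dropped by the authors' counting.

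Of the 14 at lower levels, 9 had 1 to 4 counts in all 4 libraries together, among them *Slc2a2* (GLUT2, 4 counts), *Slc2a5* (the fructose carrier GLUT5, 1 count) and *Slc13a1* (a sulfate carrier, 1 count). The other 5 were *Slc2a9* (a urate carrier, 0.823 CPM), *Slc17a1* (a phosphate and organic anion carrier, 0.624 CPM), *Slc23a1* (an ascorbate carrier, 0.606 CPM), *Slc16a4* (0.544 CPM) and *Slc5a8* (a monocarboxylate carrier, 0.216 CPM). At these levels single libraries weigh heavily. Of the 40 counts of *Slc17a1*, 22 came from Itgb6-siRNA replicate 1.

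The 7 detected carriers were led by *Slc4a4* (NBCe1, the basolateral sodium-bicarbonate cotransporter), with 68.3 and 68.6 CPM in the libraries labelled Scrambled and 70.5 and 60.9 CPM in those labelled Itgb6-siRNA. *Slc22a4* (OCTN1, an organic cation carrier) had 16.7, 18.5, 19.1 and 19.4 CPM in the same order, and *Slc22a5* (OCTN2, the carnitine carrier) had 12.6, 10.5, 10.9 and 9.60 CPM. Neither group stood apart for *Slc4a4* or *Slc22a5*. For *Slc22a4* both libraries labelled Itgb6-siRNA were higher, and the gene was not called. *Slc5a1* (SGLT1, the high-affinity glucose carrier of the late tubule) had 1.84, 1.79, 2.13 and 1.76 CPM, and *Slc13a2* (NaDC1, the brush border citrate carrier) had 0.981, 1.27, 1.87 and 1.15 CPM. The log2 fold changes of these 5 genes lay between -0.18 and 0.41 with standard errors from 0.08 to 0.46, and their adjusted p-values were between 0.627 and 0.929 (edgeR). The 2 remaining detected carriers, *Slc20a2* and *Slc47a1*, are described with the comparison of the groups.

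A few carriers listed for other nephron segments were also at low levels or at 0. None of *Slc12a1*, *Slc12a3*, *Slc4a1*, *Slc4a9*, *Slc9a4* and *Slc16a7* reached a mean of 1 CPM, and 2 of them were at 0. These genes do not cover all carriers of the other segments. Of 20 carriers listed as used by most cell types, 19 reached it. That list was written with earlier results of these data known, so this count is a description only.

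**Figure D2:**
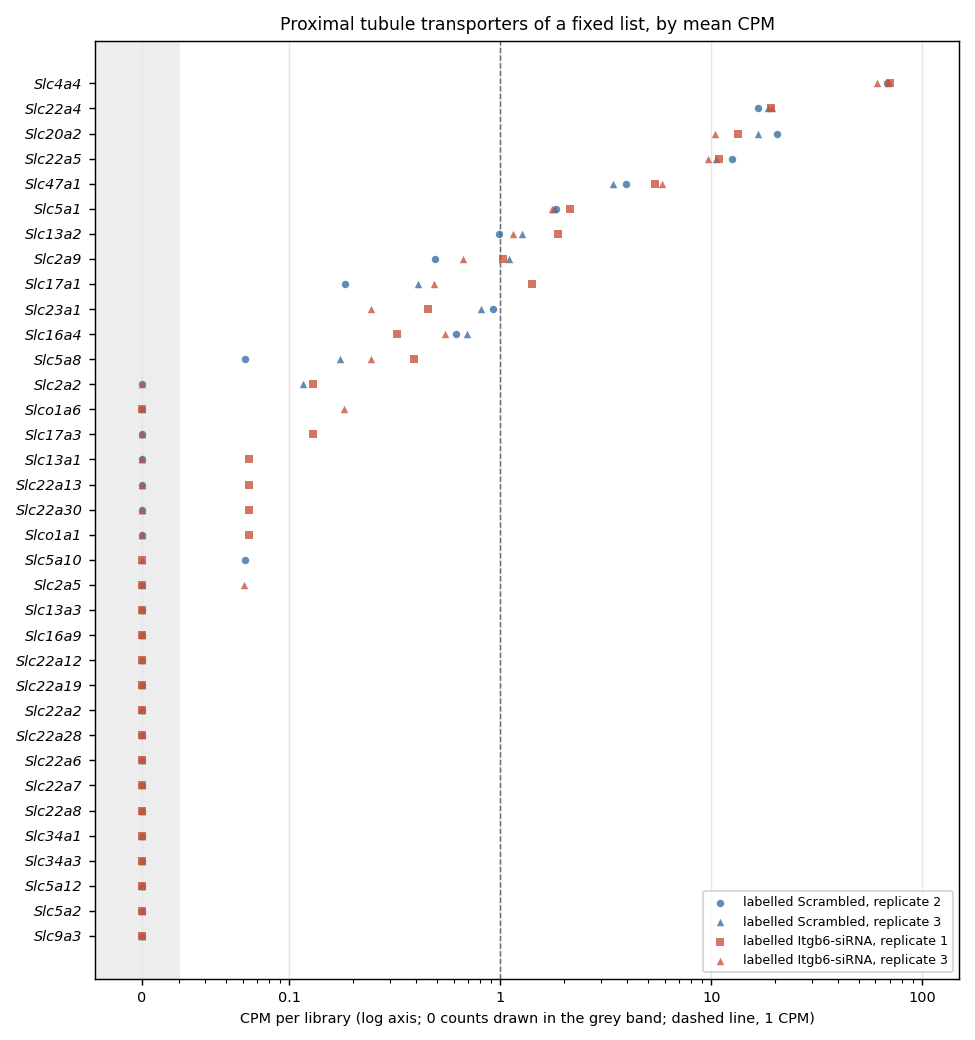
CPM per library (log axis) of 35 transporters listed for the proximal tubule, ordered by mean, with libraries at 0 counts drawn in the grey band and the dashed line at 1 CPM; blue marks Scrambled, red Itgb6-siRNA. The 7 genes from *Slc4a4* to *Slc13a2* have means above the line, and 14 of the genes drawn are at 0 in all 4 libraries.

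Between the groups, 3 of the 54 transporters that passed the filter on low counts fell and none rose in the libraries labelled Itgb6-siRNA, at an adjusted p under 0.05 over the 11727 genes tested. Of all genes tested, 2.52% were called lower and 2.11% higher by this rule. The 3 were *Slco2a1*, *Slc2a1* and *Slc20a2*, a prostaglandin, a glucose and a phosphate carrier. At an unadjusted p under 0.05, 6 of the 54 were lower and 2 higher, where 9.62% of all genes tested were lower and 8.80% higher.

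*Slco2a1* (ENSMUSG00000032548, chromosome 9, 102988712 to 103096002, plus strand, GRCm38) had 247 and 236 CPM in the libraries labelled Scrambled and 195 and 188 CPM in those labelled Itgb6-siRNA. The groups did not overlap. Its log2 fold change was -0.33 (SE 0.056, 95% interval -0.45 to -0.22, adjusted p = 0.000381, edgeR). The protein takes prostaglandins up from outside the cell.

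*Slc2a1* (ENSMUSG00000028645, chromosome 4, 119108711 to 119137983, plus strand, GRCm38) had 1777 and 1657 CPM in the libraries labelled Scrambled and 1448 and 1479 CPM in those labelled Itgb6-siRNA. Both libraries labelled Itgb6-siRNA lay below both labelled Scrambled. The log2 fold change was -0.23 (SE 0.045, 95% interval -0.32 to -0.14, adjusted p = 0.00165, edgeR). This is a small change of a very abundant transcript, whose normalized level decreased by 14.7%.

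*Slc20a2* (PiT-2, a sodium-phosphate cotransporter of the brush border, ENSMUSG00000037656, chromosome 8, 22476788 to 22569612, plus strand, GRCm38) had 20.4 and 16.6 CPM in the libraries labelled Scrambled and 13.4 and 10.4 CPM in those labelled Itgb6-siRNA. The groups did not overlap, but the gap between Scrambled replicate 3 and Itgb6-siRNA replicate 1 was smaller than the gap within the Scrambled group. The log2 fold change was -0.64 (SE 0.15, 95% interval -0.93 to -0.34, adjusted p = 0.00824, edgeR). The gene shares 95 exon bases with *Smim19* on the opposite strand, which libraries without strand information cannot separate. Of the 36 proximal tubule carriers of the list, 10 were tested, and *Slc20a2* was the only one called at this threshold. Of all genes tested, 2.52% were called lower and 2.11% higher.

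All 3 calls were lost without Scrambled replicate 2. With that library left out, the adjusted p-values were 0.148 for *Slco2a1*, 0.344 for *Slc2a1* and 0.402 for *Slc20a2*, at log2 fold changes of -0.30, -0.18 and -0.48, and of all genes tested 13 were called in place of 542. *Slc20a2* was also not called without Itgb6-siRNA replicate 3 (log2 fold change -0.46, adjusted p = 0.122) or by DESeq2, which gave it no adjusted p by default and 0.161 with independent filtering off (-0.63, a setting chosen after seeing the data).

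**Figure D3:**
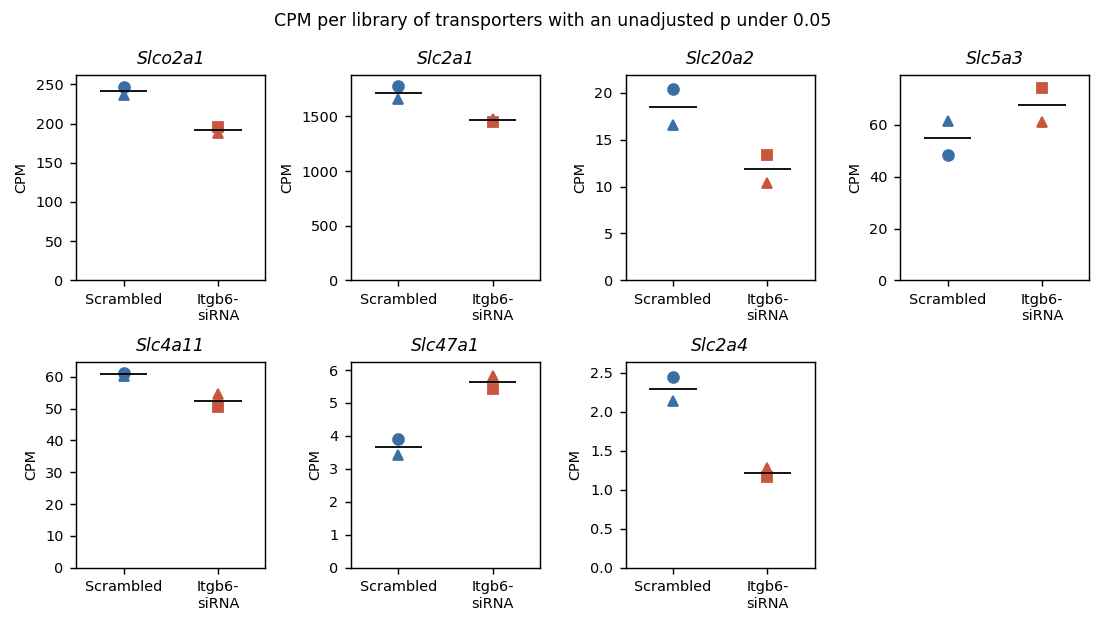
CPM of each library for 7 transporters with an unadjusted p under 0.05, by label, each panel starting at 0; circles, triangles and squares are replicates 2, 3 and 1, and bars are group means (n = 2). *Slco2a1*, *Slc2a1* and *Slc20a2* fell at an adjusted p under 0.05, and for *Slc5a3* the Itgb6-siRNA replicate 3 lies below Scrambled replicate 3.

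The promoters of *Slc2a1* and *Slco2a1*, which fell, and of *Slc16a3*, the other abundant carrier, are shown. The reason is that *Slc2a1* and *Slc16a3* are known targets of hypoxia-inducible factors, whose binding core can read ACGTG. Only this form was searched, so the other form of the core, GCGTG, is neither marked nor counted. Each window is the 250 bases before the RefSeq start on the plus strand (GRCm38.p6), at chr4:119108495-119108744 for *Slc2a1*, chr9:103008237-103008486 for *Slco2a1* and chr11:120948817-120949066 for *Slc16a3*. Capitals mark ACGTG or its reverse complement CACGT.
Slc2a1: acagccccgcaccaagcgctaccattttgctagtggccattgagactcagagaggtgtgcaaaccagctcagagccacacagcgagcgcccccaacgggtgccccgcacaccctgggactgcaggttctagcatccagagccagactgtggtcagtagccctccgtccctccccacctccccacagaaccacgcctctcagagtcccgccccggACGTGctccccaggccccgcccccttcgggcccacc
Slco2a1: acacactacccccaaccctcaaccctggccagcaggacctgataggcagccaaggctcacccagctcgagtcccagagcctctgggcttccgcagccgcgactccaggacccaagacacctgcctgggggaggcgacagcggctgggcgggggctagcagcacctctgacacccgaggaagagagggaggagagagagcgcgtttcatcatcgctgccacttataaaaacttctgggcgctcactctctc
Slc16a3: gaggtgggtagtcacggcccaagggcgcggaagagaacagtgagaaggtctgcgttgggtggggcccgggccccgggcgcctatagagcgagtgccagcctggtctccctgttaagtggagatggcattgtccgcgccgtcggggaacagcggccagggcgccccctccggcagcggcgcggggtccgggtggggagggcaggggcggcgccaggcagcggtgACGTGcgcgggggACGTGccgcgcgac
The *Slc2a1* window held 1 match, which begins 36 bases before the start, and that of *Slc16a3* held 2, beginning 27 and 14 bases before it. No match was found in the window of *Slco2a1*. On either strand ACGTG was present in 16.6% of all 32851 windows and in a window of 18.5% of all genes that had one. Among tested transporters with a window it was present in 10 of 37. A match describes the letters only, and binding was not measured. For all 3 genes the RefSeq start lies inside the gene span that GENCODE gives. *Slc16a3* was not called, with 637 and 620 CPM in the libraries labelled Scrambled, 612 and 619 CPM in those labelled Itgb6-siRNA and a log2 fold change of -0.03 (SE 0.047, adjusted p = 0.787, edgeR). *Hif1a*, which encodes such a factor, was not called (log2 fold change 0.16, SE 0.051, adjusted p = 0.0724, edgeR), except without Itgb6-siRNA replicate 1 (0.17, adjusted p = 0.0306).

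The thresholds of the study, fold changes over 1.2 with a p under 0.05 before adjustment, called 3 transporters lower and 2 higher, where they called 5.20% of all genes tested lower and 4.37% higher. *Slc2a1* changed by less than 1.2-fold and is not among them. *Slco2a1* and *Slc20a2* are, together with *Slc2a4* (GLUT4, the insulin-responsive glucose carrier), *Slc5a3* (the sodium/myo-inositol cotransporter) and *Slc47a1* (MATE1, which exports organic cations across the brush border). These last 3 genes did not pass the adjusted threshold.

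*Slc2a4* had 40 and 37 counts in the libraries labelled Scrambled and 18 and 21 counts in those labelled Itgb6-siRNA. Its log2 fold change was -0.91 (SE 0.40, adjusted p = 0.214, edgeR). *Slc47a1* had 3.92 and 3.42 CPM in the libraries labelled Scrambled and 5.43 and 5.83 CPM in those labelled Itgb6-siRNA. Its log2 fold change was 0.62 (SE 0.24, adjusted p = 0.142). Neither gene overlapped between the groups, and both had wide intervals, from -1.73 to -0.086 for *Slc2a4* and from 0.13 to 1.11 for *Slc47a1*. Neither passed the thresholds of the study by DESeq2. *Slc2a4* also did not pass them with any 1 library left out, nor did *Slc47a1* without Itgb6-siRNA replicate 3 or Scrambled replicate 3.

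*Slc5a3* had 48.5 and 61.7 CPM in the libraries labelled Scrambled and 74.4 and 61.3 CPM in those labelled Itgb6-siRNA, so that the groups overlapped. The log2 fold change was 0.30 (SE 0.096, adjusted p = 0.0679, edgeR). It was called with no filter on low counts (adjusted p = 0.0122) or with at least 10 counts in every library (0.042), and was 0.19 (0.321) once trends on GC content and length were removed. It was also called without Itgb6-siRNA replicate 3 (0.43, adjusted p = 0.00361) or Scrambled replicate 3 (0.49, adjusted p = 0.0487), and was not called without Itgb6-siRNA replicate 1 (0.15) or Scrambled replicate 2 (0.13). The gene shares 159 exon bases with *Mrps6* and *Gm49711* on the same strand, and its count was not whole in Scrambled replicate 2, so its level is uncertain.

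Over the 54 transporters tested, the median log2 fold change was -0.059, with 33 genes below 0 and 21 above it, and over all genes tested it was 0.00017. In 23 of the 54 the 2 groups of libraries were separate, without overlap, which was so for 49.2% of all genes tested. Only genes that passed the filter enter these values.

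**Figure D4:**
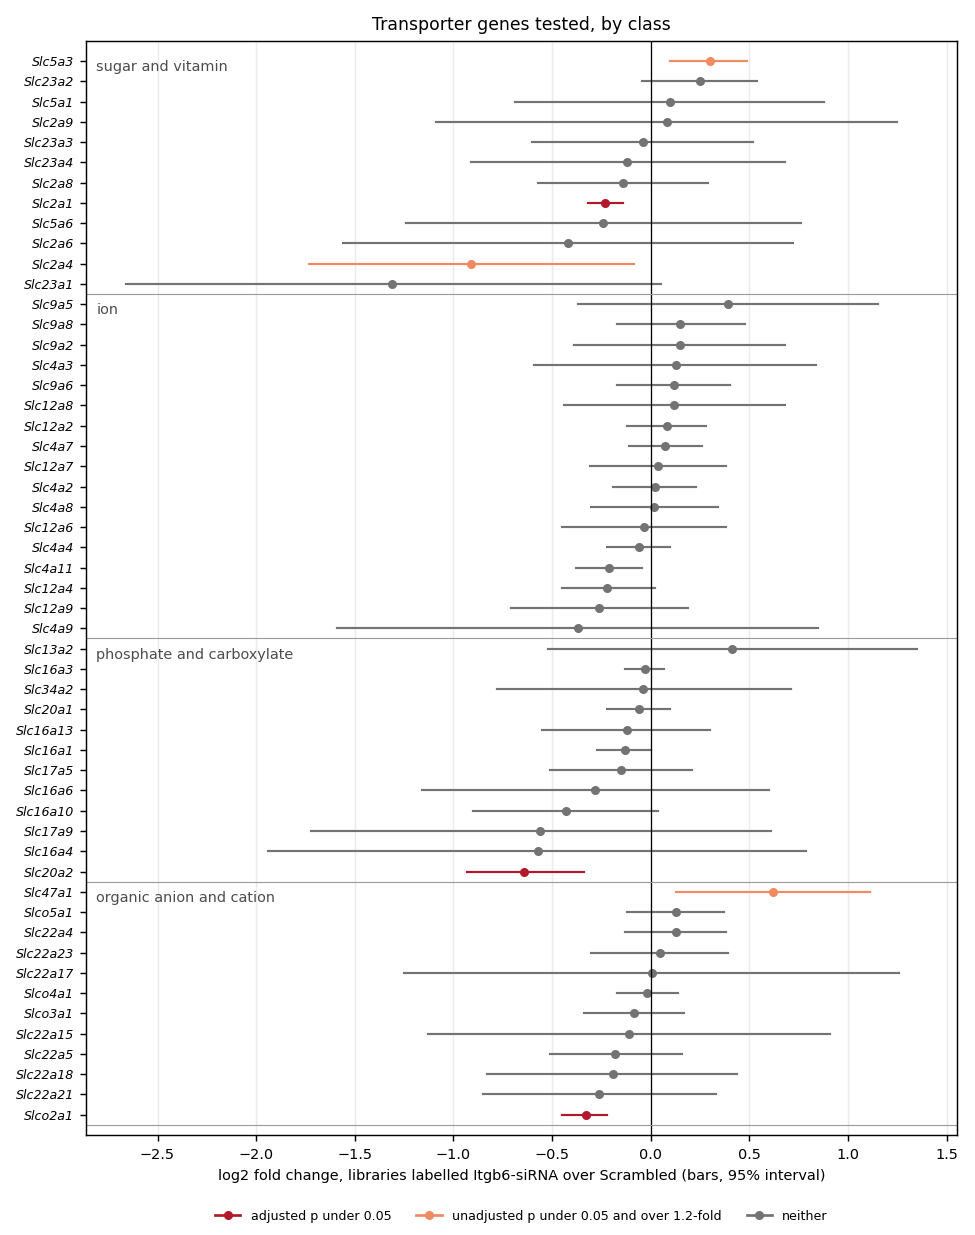
Log2 fold change (libraries labelled Itgb6-siRNA over Scrambled) with its 95% interval for 53 of the 54 transporters tested, by class; dark red marks an adjusted p under 0.05, orange the thresholds of the study without it, grey neither. In the phosphate and carboxylate class 11 of 12 genes lie below 0 (10 with GC and length trends removed), and in the ion class 11 of the 17 drawn lie above it (10 with the trends removed).

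Among the 12 sugar and vitamin carriers tested, 8 had a log2 fold change below 0, with a median of -0.13, or 6 with a median of -0.033 once GC and length trends were removed, and *Slc2a1* was called. *Slc2a8* (GLUT8, an intracellular hexose carrier), among the highest in FPKM of this class, had 6.19, 7.18, 5.17 and 6.99 CPM in Scrambled replicates 2 and 3 and Itgb6-siRNA replicates 1 and 3, and was not called (-0.14, SE 0.21, adjusted p = 0.786, edgeR). The ascorbate carriers *Slc23a1* and *Slc23a2* had the lowest log2 fold change of the 54 and the second highest of the class, and neither was called. *Slc23a1* had 15 and 14 counts in the libraries labelled Scrambled against 7 and 4 (-1.31, SE 0.67, adjusted p = 0.292, edgeR). *Slc23a2* had 12.6 and 11.8 CPM against 14.9 and 14.1 CPM (0.25, SE 0.14, adjusted p = 0.37, edgeR).

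None of the 18 ion carriers tested was called by either rule, and their median log2 fold change was 0.03. Most abundant were *Slc4a11*, *Slc4a2* and *Slc4a4*. *Slc4a11* had 61.1 and 60.4 CPM in the libraries labelled Scrambled and 50.4 and 54.5 CPM in those labelled Itgb6-siRNA (log2 fold change -0.21, SE 0.081, adjusted p = 0.136, edgeR). *Slc4a2* had 32.6, 39.3, 38.9 and 34.2 CPM in the same order of libraries, with overlapping groups and a log2 fold change of 0.022 (SE 0.10, adjusted p = 0.942, edgeR). It shares 1141 exon bases with *Fastk* on the opposite strand, which libraries without strand information cannot separate. *Slc12a4* (KCC1, a potassium-chloride cotransporter) had 28.9 and 28.1 CPM against 21.6 and 27.3 CPM (-0.22, SE 0.12, adjusted p = 0.32, edgeR), with a value of -0.061 without Itgb6-siRNA replicate 1 and of -0.39 without Itgb6-siRNA replicate 3.

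Of the 12 phosphate and carboxylate carriers tested, 11 had a log2 fold change below 0, with a median of -0.14. With the trends removed, 10 did, with a median of -0.18. In 8 the libraries did not overlap, all of them lower in the libraries labelled Itgb6-siRNA. Of all 11727 genes tested, 49.2% did not overlap in either direction, and 2977 did not overlap and were lower. *Slc20a2* was the one called. Its relative *Slc20a1* was not called, with 60.2 and 61.3 CPM against 57.2 and 59.5 CPM (-0.057, SE 0.079, adjusted p = 0.758, edgeR). The difference between these relatives was not tested. All 6 genes tested of the Slc16 family, which holds the monocarboxylate carriers, had values below 0, from -0.03 to -0.57, and none was called. With the trends removed *Slc16a3* was at 0.087 and the other 5 stayed below 0. Among them *Slc16a1* had 118 and 123 CPM in the libraries labelled Scrambled and 108 and 112 CPM in those labelled Itgb6-siRNA (-0.13, SE 0.066, adjusted p = 0.273, edgeR). *Slc16a10* (TAT1, an aromatic amino acid carrier) had 6.50 and 5.73 CPM against 3.81 and 5.22 CPM (-0.43, SE 0.23, adjusted p = 0.317, edgeR).

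Of the 12 organic anion and cation carriers tested, 7 had values below 0 and 5 above, with a median of -0.051, or 6 and 6 with a median of 0.011 with the trends removed, and *Slco2a1* was called. *Slco4a1* had 76.7, 85.9, 80.9 and 79.8 CPM in the order given above, within the spread of the replicates (-0.017, SE 0.075, adjusted p = 0.936, edgeR). *Slco2a1* and *Slco4a1* overlapped in FPKM, and the libraries labelled Scrambled had the higher levels of *Slco2a1* (34.9 and 33.2 FPKM against 27.5 and 26.0 FPKM). The other 29 members of the class were not tested, of which 20 were at 0 in all 4 libraries.

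Proteins that partner with the carriers or regulate them were taken from a list of 36, of which 34 are not members. Of these 34, 28 were tested, 2 rose and none fell at an adjusted p under 0.05, and 7 had values below 0. Of all genes tested, 2.11% rose and 2.52% fell by this rule, and 5858 of the 11727 had values below 0. *Sgk1*, a kinase that increases the activity of several sodium-coupled carriers and of NHE3, had 40 and 36 counts in the libraries labelled Scrambled and 80 and 95 counts in those labelled Itgb6-siRNA. The groups did not overlap, and the log2 fold change was 1.27 (SE 0.27, adjusted p = 0.00409, edgeR). *Atp1b1*, the β1 subunit of the sodium pump, had 134 and 141 CPM against 166 and 158 CPM (0.23, SE 0.062, adjusted p = 0.0224, edgeR). It shares 575 exon bases with *Nme7* on the opposite strand. Without Scrambled replicate 2 the adjusted p was 0.106 for *Sgk1* and 0.464 for *Atp1b1*, and without Scrambled replicate 3 it was 0.0798 and 0.105. *Atp1b1* was also not called without Itgb6-siRNA replicate 1 (adjusted p = 0.0623), and with DESeq2's independent filtering off neither was called (0.0835 and 0.0763).

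*Bsg* (basigin, the chaperone of MCT1 and MCT4) had the highest level of the list at 1457 ± 43.3 FPKM (SD, n = 4), above every transporter, and was not called (log2 fold change 0.046, SE 0.045, adjusted p = 0.639, edgeR). *Hnf4a*, a transcription factor that drives the proximal tubule program, had 0 or 1 count in each library. Of the carbonic anhydrases that serve bicarbonate reabsorption, *Car4* and *Car14* had 0 to 3 counts, while *Car2* and *Car12* had 805 to 988 counts. *Kl*, the phosphate-regulating coreceptor of FGF23, was at 0.

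**Figure D5:**
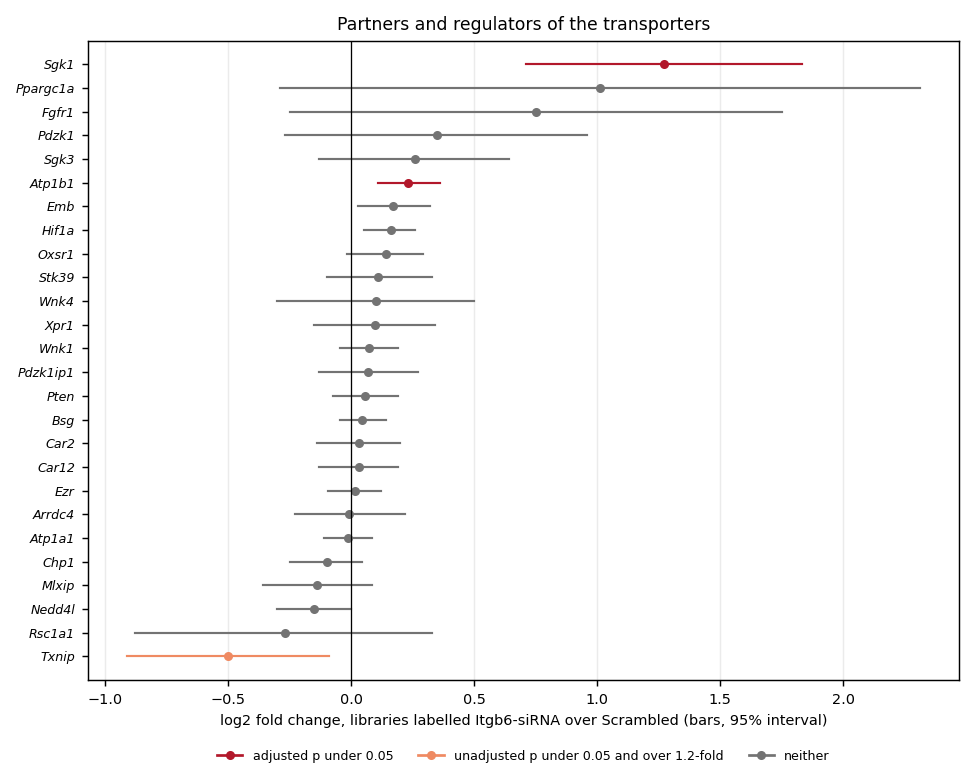
Log2 fold change (libraries labelled Itgb6-siRNA over Scrambled) with its 95% interval for 26 of the 28 tested partners and regulators, ordered by value; colours as for the transporters. *Sgk1* at 1.27 and *Atp1b1* at 0.23 have an adjusted p under 0.05.

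Of the 7 proximal tubule markers tested, 4 above 0 and 3 below it, only *Aqp1*, the water channel of this segment, was called by edgeR. It rose, with 23.7 and 27.6 CPM in the libraries labelled Scrambled and 38.8 and 38.4 CPM in those labelled Itgb6-siRNA (log2 fold change 0.59, SE 0.10, adjusted p = 0.000617, edgeR). Without Scrambled replicate 2 it was 0.48 with an adjusted p of 0.148. *Cdh6* passed only the thresholds of the study (0.39, SE 0.13, adjusted p = 0.0679, edgeR). By these thresholds 2 of the 7 markers were higher and 0 lower. Of all genes tested, 4.37% were higher and 5.20% lower by them, and 2.11% and 2.52% at an adjusted p under 0.05. *Cd68* had 104 and 114 CPM in the libraries labelled Scrambled and 99.1 and 98.2 CPM in those labelled Itgb6-siRNA (-0.15, SE 0.069, adjusted p = 0.244, edgeR). The part of these markers in the transporter results was not tested. In bulk libraries, fewer cells that express a gene and less RNA per cell cannot be told apart.

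Log2 fold changes of all genes fell with the GC content of their transcripts (rho of Spearman -0.364, across 11709 genes that share the same 4 libraries and are no independent replicates). The 3 carriers that fell had GC contents of 52.3% (*Slco2a1*), 54.0% (*Slc2a1*) and 53.3% (*Slc20a2*). With trends on GC content and length removed they were still called, at log2 fold changes of -0.29, -0.16 and -0.57 and adjusted p-values of 0.00427, 0.0285 and 0.0423 (edgeR).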

How the data were processed

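Polyadenylated RNA of 4 libraries was sequenced in pairs without strand information. Gene by gene, the authors deposited estimated counts without normalization, of which 1447 to 1500 per library were not whole numbers. FPKM values, likewise deposited by the authors, were used here only to compare levels between genes. The aligner, counting tool and genome build are not given in the sources used here, and the study states that samples were optimized after a cluster analysis. Gene coordinates and exon overlaps are from GENCODE vM21 (GRCm38), which held 99.6% of the identifiers and is not stated to be theirs.

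Counts were rounded, filtered (filterByExpr, at least 10 counts, at least 15 in total, leaving 11727 genes) and scaled with TMM factors. Groups were compared by quasi-likelihood F tests (edgeR 4.0.16, R 4.3.3), and p-values were adjusted over these genes after Benjamini and Hochberg. The fit used the 4 libraries by label, with no covariate. A standard error is the log2 fold change divided by the root of F. The common biological coefficient of variation was 0.0551. Scripts were tested on simulated data. With 2 libraries per group the smallest exact two-sided permutation p is 0.333, so no such test was used. DESeq2 1.42.0 was an alternative, among other normalizations, filters, a removal of GC and length trends, and leaving out each library.

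The members and gene lists were chosen with earlier results of these data known. The rule for named genes took *Itgb6*, members with an adjusted p under 0.05, the 5 lower and 5 higher members with the largest fold change past the thresholds of the study, the 3 members of each class with the highest FPKM, proximal tubule carriers with a mean of at least 1 CPM or at 0 in all libraries, and called partners. Further genes of the fixed lists, and *Slc12a4*, *Slc16a10*, *Slc23a1*, *Slc23a2*, *Hif1a*, *Bsg*, *Aqp1* and *Cd68*, were named after their values were seen. Some genes are not reported here by name and are not drawn, though they stay in the counts.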

Additional observations from a re-analysis of the deposited data

How the results depend on the processing

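The number of transporters with an adjusted p under 0.05 was 3, and from 2 to 4 under each other test, normalization, filter or trend correction. Leaving out 1 library gave 0 to 4, with 0 without Scrambled replicate 2, where 13 of all genes tested were called in place of 542. The thresholds of the study called 5 transporters, 3 by DESeq2, 3 with a fold change over 1.5, 7 with no filter, and 4 to 7 with 1 library left out. The median log2 fold change of the transporters tested was -0.059 and stayed below 0 under each alternative, from -0.083 to -0.012 with 1 library left out. The proximal tubule carriers detected numbered 7, or 11 at a mean of at least 0.5 CPM, 4 at 5 CPM and 5 at 1 FPKM. With GC and length trends removed, the log2 fold changes of *Slco4a1* (0.076), *Slc16a3* (0.087) and *Slc2a8* (0.016) changed sign. The sign also changed with the library left out for *Itgb6* (-0.10 to 0.091), *Slc4a2* (-0.11 to 0.17), *Slc4a4* (-0.17 to 0.045), *Slco4a1* (-0.097 to 0.07), *Slc2a8* (-0.37 to 0.061), *Slc5a1* (-0.045 to 0.23) and *Bsg* (-0.0089 to 0.10), none of which was called. The cause was not tested. No paired analysis was possible because the groups compared share fewer than 2 replicate numbers, only number 3. With 2 libraries per group, wide intervals of genes under about 5 CPM limit what can be called.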
